A study of Mus musculus with 8 samples.

Results

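The genes that encode the mitochondrial respiratory chain were followed in mast cells (MC) of tumor-bearing mice. Members were all transcript clusters with exactly 1 gene symbol that starts with Nduf, Uqcr, Cox4 to Cox8 or Atp5, or that is Sdha, Sdhb, Sdhc or Sdhd. This gave 85 genes among 24111 clusters, and no symbol had more than 1 cluster. They comprised 32 genes of complex I, 7 complex I assembly factors (Ndufaf), 4 of complex II, 7 of complex III, 19 of complex IV (Ndufa4 and Ndufa4l2 counted there) and 16 of complex V. The pseudogenes Uqcrh-ps1 and Atp5c1-ps carried a matching symbol, and they share sequence with Uqcrh and Atp5c1. Another 5 clusters were left out because their annotation joins a second gene, namely those of Ndufs1 with Ino80dos, Ndufs6 with Ndufs6b, Uqcr10 with Gm6293, Uqcrb with Gm10767 and Cox6c with Gm6265 (Ndufs1 has a second cluster, which was kept).

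C57BL/6J mice carried Panc02 tumors, grown under the skin of the flank from a mouse pancreatic cancer line. At a tumor volume of 100 mm3 they received either placebo or 40 mg/kg DC101, an antibody that blocks the VEGF receptor 2. MC were sorted for CD117, FceRI, CD45, CD11b and DAPI from tumors and from peritoneal lavage of these mice, so the peritoneal MC also come from animals with a tumor. RNA was measured on Affymetrix Mouse Gene arrays, with 2 arrays each for tumor MC with placebo, tumor MC with DC101, peritoneal MC with placebo and peritoneal MC with DC101.

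The respiratory chain passes electrons from NADH (complex I) and succinate (complex II) through complex III and cytochrome c to oxygen at complex IV, and complex V uses the proton gradient so built to make ATP. Most subunits are encoded in the nucleus, and several of complex IV exist as tissue-specific isoforms, such as the heart and muscle forms Cox6a2, Cox7a1 and Cox8b beside the broadly expressed Cox6a1, Cox7a2 and Cox8a. Activated MC are known to draw on both glycolysis and mitochondrial respiration.

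The deposited values are on the log2 scale, and a difference of 1 is a doubling. Array medians lay between 3.34 and 3.46, and the correlation between both arrays of a group between 0.974 and 0.986. All 10 MC markers, among them Cpa3 and the sorted-on Kit and Fcer1a, lay above the median cluster in every group. Markers of other cells were present too. B cell markers had a summed linear level of 3016 to 3116 in peritoneal MC with placebo and of 36.3 to 55.6 in tumor MC, and fibroblast markers of 2497 to 2701 in tumor MC and of 77.6 to 239 in peritoneal MC. The labels do not tell whether both arrays of a group stem from different animals. The p-values therefore reflect the spread of these arrays alone, and that spread may be technical.

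Respiratory chain genes had a smaller median SD over the arrays than all clusters above the median cluster. The mean over all 8 arrays lay above the median cluster (3.48) for 76 of 85 members, with a median of 7.94, and above 10 for 18 members. The 9 members below it were Atp5g1, Atp5h, Atp5o, Ndufs5, Cox7b2, Cox8b, Cox8c and both pseudogenes. RMA gives no detection call, and levels of different clusters have no common scale, so a low value does not show that a gene is silent. The median SD of all 85 members over the 8 arrays was 0.25, against 0.43 for all clusters above the median cluster. These sets were not matched for level. Within a group the median SD of members was 0.11. Cox4i1, the main form of complex IV subunit 4, is an example. It measured 10.64 and 10.71 in tumor MC with placebo, 10.69 and 10.69 in tumor MC with DC101, 10.59 and 10.61 in peritoneal MC with placebo, and 10.46 and 10.65 in peritoneal MC with DC101. All 8 arrays lay close together. Under each treatment both tumor arrays lay slightly above both peritoneal arrays, while DC101 and placebo arrays overlapped within each compartment.

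In tumor MC, DC101 changed no member of the respiratory chain. The test was limma over all 24111 clusters with Benjamini-Hochberg adjustment at 0.05, and the background is 0% called, as 0 of all clusters passed. At an unadjusted p under 0.05, 1 member was higher and 0 were lower (1.18% of members), against 5.04% of all clusters (2.36% higher and 2.68% lower). This was the pseudogene Uqcrh-ps1, which lies below the median cluster, with 2.17 and 1.66 under placebo and 2.71 and 2.83 under DC101 (difference 0.86 ± 0.28 (SE), adjusted p = 0.89). Member differences ran from −0.63 (Cox7b) to 0.86, with a median of −0.05, beside −0.03 over all clusters. No member differed by a doubling or a halving.

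The precision of this null can be stated per gene. The unadjusted 95% interval of the difference lay within a 2-fold change in either direction for 81 of 85 members, against 80.8% of all clusters. The 4 genes of complex II, succinate dehydrogenase, were between −0.20 (Sdha) and −0.10 (Sdhc). The smallest p in complex I and in complex V were those of Ndufv1, the core subunit that binds NADH, at −0.32 ± 0.26, and of Atp5o, a stalk subunit, at −0.35 ± 0.23 (adjusted p = 1.0 for both). The smallest p of the assembly factors was that of Ndufaf1, with 6.13 and 6.26 under placebo and 5.80 and 5.68 under DC101 (difference −0.46 ± 0.21, adjusted p = 1.0). Both DC101 arrays of this gene lay below both placebo arrays. Such separation of the arrays was found for 19 members on the low side (22.4% of members) and 10 on the high side (11.8%), against 20.6% and 15.7% of all clusters.

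In peritoneal MC, DC101 raised 2 respiratory chain genes, Sdhd and Cox7a1, and lowered none at the threshold. Over all clusters 4.58% passed, 2.48% higher and 2.10% lower. At an unadjusted p under 0.05, 16 members differed (6 higher and 10 lower), which is 18.8% of members against 18.9% of all clusters. Among the 76 members above the median cluster the share was 21.1%, against 29.6% of all clusters above it. The median member difference was −0.10, beside −0.02 over all clusters. Of the members 36 were above 0 (47.6% of all clusters were), and 61 of 85 intervals lay within a 2-fold change (66.8% of all clusters).

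Sdhd encodes a membrane anchor of succinate dehydrogenase, the enzyme shared by the respiratory chain and the tricarboxylic acid cycle. It measured 6.27 and 5.73 in peritoneal MC with placebo and 7.33 and 7.57 with DC101. In tumor MC it was 7.74 and 7.37 with placebo and 7.32 and 7.49 with DC101. Both peritoneal placebo arrays were thus below the other 6, which overlapped among themselves. The DC101 difference in peritoneal MC was 1.45 ± 0.25, a 2.73-fold rise (adjusted p = 0.015). Because the arrays hold RNA of sorted pools, fewer cells of a type and less RNA per cell cannot be told apart. The call was lost without peritoneal placebo replicate 2 (1.18, adjusted p = 0.084) and without peritoneal DC101 replicate 2 (1.33, adjusted p = 0.068). It was also lost without moderation (adjusted p = 0.12) and in a fit of the 4 peritoneal arrays alone (adjusted p = 0.054).

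The other 3 genes of complex II did not follow. Sdha and Sdhb, the flavoprotein and iron-sulfur subunits that carry the catalytic site, had peritoneal differences of −0.15 ± 0.20 and −0.29 ± 0.20. Sdhc, the second membrane anchor, had 7.24 and 6.93 with placebo and 7.21 and 7.55 with DC101, which overlap (difference 0.30 ± 0.21, adjusted p = 0.53).

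Cox7a1, the heart and muscle form of complex IV subunit 7a, measured 5.13 and 4.13 in peritoneal MC with placebo and 6.53 and 5.96 with DC101. The tumor MC arrays read 6.73 and 6.16 with placebo and 6.41 and 6.62 with DC101. The pattern over groups was that of Sdhd, with both peritoneal placebo arrays below all others and nearly 1 log2 unit apart from each other. The difference was 1.62 ± 0.36, a 3.07-fold rise (adjusted p = 0.038). It was no longer called without tumor DC101 replicate 1 or 2 (1.62 and adjusted p = 0.071 in both cases), without peritoneal placebo replicate 2 (1.12, adjusted p = 0.17), or without peritoneal DC101 replicate 1 (1.33, adjusted p = 0.17) or 2 (1.90, adjusted p = 0.064). Array weights (adjusted p = 0.056), no moderation (0.22), the nested F-test and the 4 peritoneal arrays alone (adjusted p = 0.097) also ended the call. The ubiquitous forms Cox7a2 and Cox7a2l had differences of −0.01 ± 0.18 and −0.16 ± 0.20.

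**Figure D1:**
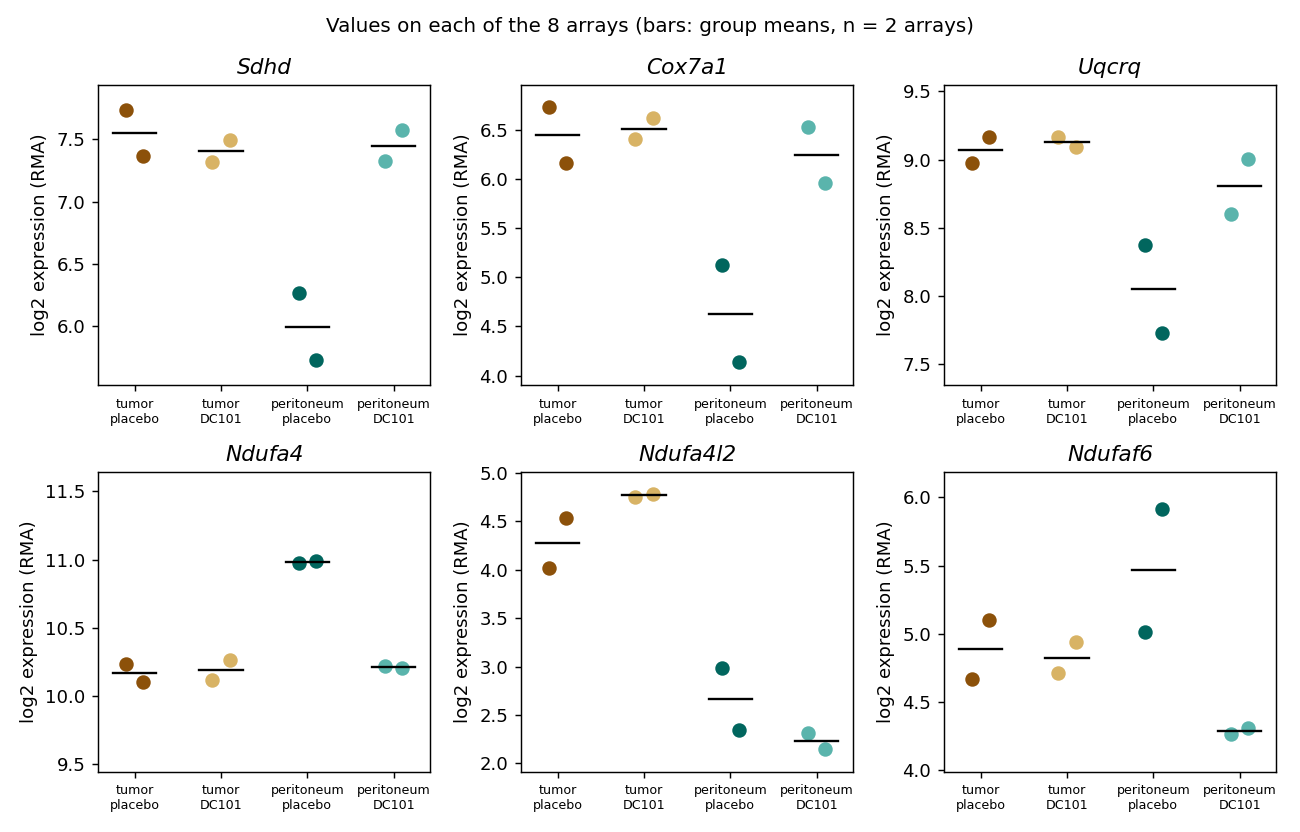
Log2 expression (y axis) of 6 genes on each of the 8 arrays, as points, with group means as bars (n = 2 arrays per group). Sdhd, Cox7a1 and Uqcrq are lowest, and Ndufa4 is highest, on both peritoneal placebo arrays, while Ndufa4l2 separates tumor from peritoneum and Ndufaf6 is lowest on both peritoneal DC101 arrays.

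The peritoneal placebo arrays stood apart for some members, as they did for a share of all clusters. Both lay below the other 6 arrays for 10 members (11.8%), namely Sdhd, Cox7a1, Uqcrq, Atp5g2, Atp5a1, Cox6b1, Cox7c, Ndufa2, Ndufa13 and Ndufaf8, against 7.19% of all clusters. Counted against the peritoneal DC101 arrays alone, members with non-overlapping arrays numbered 13 on the higher side under DC101 (21.5% of all clusters) and 23 on the lower side (24.6%). Both placebo arrays lay above the other 6 for 7 members (8.24%), Ndufa4, Ndufa9, Ndufb7, Ndufb10, Ndufs1, Ndufaf1 and Ndufaf4, against 9.0%. Markers moved along the same groups. Their counts with DC101 in peritoneal MC stand against 2.48% of all clusters higher and 2.10% lower. Immediate early response genes such as Fos and Junb had a summed linear level of 3229 to 3696 in peritoneal MC with placebo, 7652 to 8383 with DC101 and 9519 to 10673 in tumor MC, and 6 of 9 rose with DC101 in peritoneal MC. T and NK cell markers went from 1428 to 1473 with placebo to 493 to 604 with DC101 (7 of 11 fell, with Cd3e, Il2rb, Klrb1c and Ncr1 then below the median cluster), B cell markers from 3016 to 3116 down to 1311 to 1858 (2 of 5 fell), and macrophage markers from 3150 to 3716 up to 6045 to 7789 (2 of 9 rose and 1 fell). Eosinophil markers went from 105 to 106 up to 448 to 677 (3 of 5 rose, with Epx and Prg2 below the median cluster in every group). The summed level of the MC markers was 11730.5 to 12776.4 with placebo and 10211 to 11130.6 with DC101. Of these 10 markers 9 had a difference below 0, and 0 passed. Cycling cell markers went from 645 to 667 down to 334 to 404 (3 of 8 fell). Neutrophil markers went from 2921 to 3111 up to 3512 to 4703, although 2 of 6 fell, and 3 of 6 had a difference above 0. Of the mesothelial and of the fibroblast markers, 1 each fell. Their part in the results for Sdhd, Cox7a1 and the other members was not tested.

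The genes whose profile over the 8 arrays was most like the mean of Sdhd and Cox7a1 were Jund (Pearson's r = 0.986), Cggbp1 (0.985), H1f2 (0.979), Jun (0.977) and Hadha (0.974). Jun is also on the list of immediate early response genes. Jund and Jun encode AP-1 transcription factors, H1f2 a linker histone and Hadha a subunit of the trifunctional enzyme of mitochondrial fatty acid oxidation. These values describe 8 arrays that share 4 groups. The neighbours of both genes on the chromosome were also read. Timm8b, an import chaperone gene next to Sdhd, had 9.46 and 9.46 with placebo and 8.82 and 9.30 with DC101 in peritoneal MC (difference −0.40 ± 0.21, adjusted p = 0.36). Zfp146, a zinc finger gene next to Cox7a1, rose by 0.88 ± 0.21 (adjusted p = 0.046), and Capns1 on its other side had a difference of 0.07 ± 0.19.

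The 250 bases before the annotated start of Sdhd and Cox7a1, which rose together, are shown beside those of Ndufa4, which had the reverse profile, and Atp5g2, a further gene that was low on the peritoneal placebo arrays. They are from RefSeq on GRCm38.p6, read 5′ to 3′ on the strand of the gene. Capitals mark matches on either strand to the NRF1 motif (GCGC, any base, TGCGC), the ETS motif CCGGAAG or the hypoxia response element ACGTG, none of which contains another.
Sdhd (chr9:50603850-50604099, minus strand): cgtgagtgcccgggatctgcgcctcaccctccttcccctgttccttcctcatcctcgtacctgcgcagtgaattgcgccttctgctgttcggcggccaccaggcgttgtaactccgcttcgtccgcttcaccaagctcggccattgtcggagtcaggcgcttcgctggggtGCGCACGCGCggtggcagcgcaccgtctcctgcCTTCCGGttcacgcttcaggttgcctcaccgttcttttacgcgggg
Cox7a1 (chr7:30183921-30184170, plus strand): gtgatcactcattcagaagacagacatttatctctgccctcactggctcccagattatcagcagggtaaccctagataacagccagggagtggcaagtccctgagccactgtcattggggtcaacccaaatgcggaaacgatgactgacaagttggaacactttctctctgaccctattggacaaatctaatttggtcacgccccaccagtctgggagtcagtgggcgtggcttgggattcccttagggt
Ndufa4 (chr6:11907451-11907700, minus strand): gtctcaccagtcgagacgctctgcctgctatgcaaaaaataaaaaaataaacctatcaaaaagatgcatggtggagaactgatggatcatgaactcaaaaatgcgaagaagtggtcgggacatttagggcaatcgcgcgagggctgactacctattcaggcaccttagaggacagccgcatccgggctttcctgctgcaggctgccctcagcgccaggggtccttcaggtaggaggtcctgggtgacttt
Atp5g2 (chr15:102671048-102671297, minus strand): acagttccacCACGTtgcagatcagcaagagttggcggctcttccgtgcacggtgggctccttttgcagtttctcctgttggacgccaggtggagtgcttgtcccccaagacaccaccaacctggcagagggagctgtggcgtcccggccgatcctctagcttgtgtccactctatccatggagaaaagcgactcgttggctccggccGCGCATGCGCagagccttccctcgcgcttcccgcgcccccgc
Sdhd had 1 NRF1 and 1 ETS match, Atp5g2 a hypoxia response element and an NRF1 match, and Cox7a1 and Ndufa4 none of the 3. A promoter entry was found for 69 of 85 members. The NRF1 letters were in 12 of these (17.4%, against 4.23% of 27025 genes), the ETS letters in 13 (18.8%, against 7.83%) and the hypoxia response element in 14 (20.3%, against 18.5%). A match is a description of letters in this window. NRF1 and the ETS factor GABP are known regulators of respiratory chain genes.

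Ndufa4, now placed in complex IV, had the mirror image of the Sdhd profile. It measured 10.97 and 10.99 in peritoneal MC with placebo and 10.22 and 10.21 with DC101, and between 10.10 and 10.26 on the 4 tumor arrays. Both placebo arrays lay above the other 6, but the DC101 difference of −0.76 ± 0.18 did not pass (adjusted p = 0.053). With an intensity trend in the prior it passed (adjusted p = 0.0022), as it did among clusters above the median cluster alone (adjusted p = 0.027).

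Among the complex I assembly factors, lower values under DC101 in peritoneal MC stood out by size without passing the test. Of these 7 genes, 6 had differences below 0, and the median was −0.68, beside −0.14 for the 32 complex I subunits. Regardless of sign, the median size was 0.68 for assembly factors and 0.21 for subunits. It was 0.26 over all clusters and 0.35 over those above the median cluster. Assembly factors are chaperones and enzymes that build complex I and are not part of the finished complex. Ndufaf6, needed for an early step of assembly, measured 5.02 and 5.91 with placebo and 4.26 and 4.31 with DC101. The groups did not overlap, and the difference was −1.18 ± 0.30 (adjusted p = 0.063). It passed without peritoneal placebo replicate 1 (−1.63, adjusted p = 0.030), with an intensity trend in the prior (adjusted p = 0.0499) and among clusters above the median cluster (adjusted p = 0.040).

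Ndufaf5, which modifies the subunit Ndufs7, had 5.40 and 5.79 with placebo and 4.88 and 4.82 with DC101 (difference −0.75 ± 0.21, adjusted p = 0.082). Ndufaf4 had 6.67 and 6.48 against 5.80 and 5.95 (−0.70 ± 0.19, adjusted p = 0.076), and Ndufaf1 had 6.36 and 6.30 against 5.45 and 5.87 (−0.68 ± 0.21, adjusted p = 0.11). For each of these genes both DC101 arrays lay below both placebo arrays. Such separation on the low side was found for 5 of the 7 assembly factors (71.4%), against 24.6% of all clusters. Ndufaf8 went the other way, from 6.36 and 6.51 to 6.72 and 7.27 (0.56 ± 0.23, adjusted p = 0.22).

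None of the 32 complex I subunits passed, and 20 had a difference below 0. An unadjusted p under 0.05 was found for 5, all lower (15.6% of the subunits), against 9.73% of all clusters on the low side. Of the subunits 31 lay above the median cluster. Among the 12055 clusters above it, 1798 had such a p on the low side, a share close to that of the subunits. Ndufa9, an accessory subunit near the site of ubiquinone binding, measured 7.89 and 7.97 with placebo and 7.26 and 7.04 with DC101 (difference −0.78 ± 0.19, adjusted p = 0.055). The tumor arrays of this gene lay between 7.64 and 7.89. Ndufs1, the largest core subunit, had 6.46 and 6.67 against 5.91 and 5.88 (−0.67 ± 0.19, adjusted p = 0.082). Ndufb10 (−0.65 ± 0.20, adjusted p = 0.11), Ndufs8 (−0.77 ± 0.25, adjusted p = 0.14) and Ndufa12 (−0.65 ± 0.27, adjusted p = 0.23) completed the 5. Ndufs8 passed without peritoneal DC101 replicate 2 (−1.13, adjusted p = 0.0499). The number of members called in peritoneal MC went from 2 to 6 with the intensity trend (7.06% of members, against 6.55% of all clusters in that fit) and to 8 among clusters above the median cluster (10.5% of 76 members, against 12.8% of 12055 clusters), where 6 of them were lower (Ndufa4, Ndufa9, Ndufs1, Ndufaf4, Ndufaf5 and Ndufaf6).

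**Figure D2:**
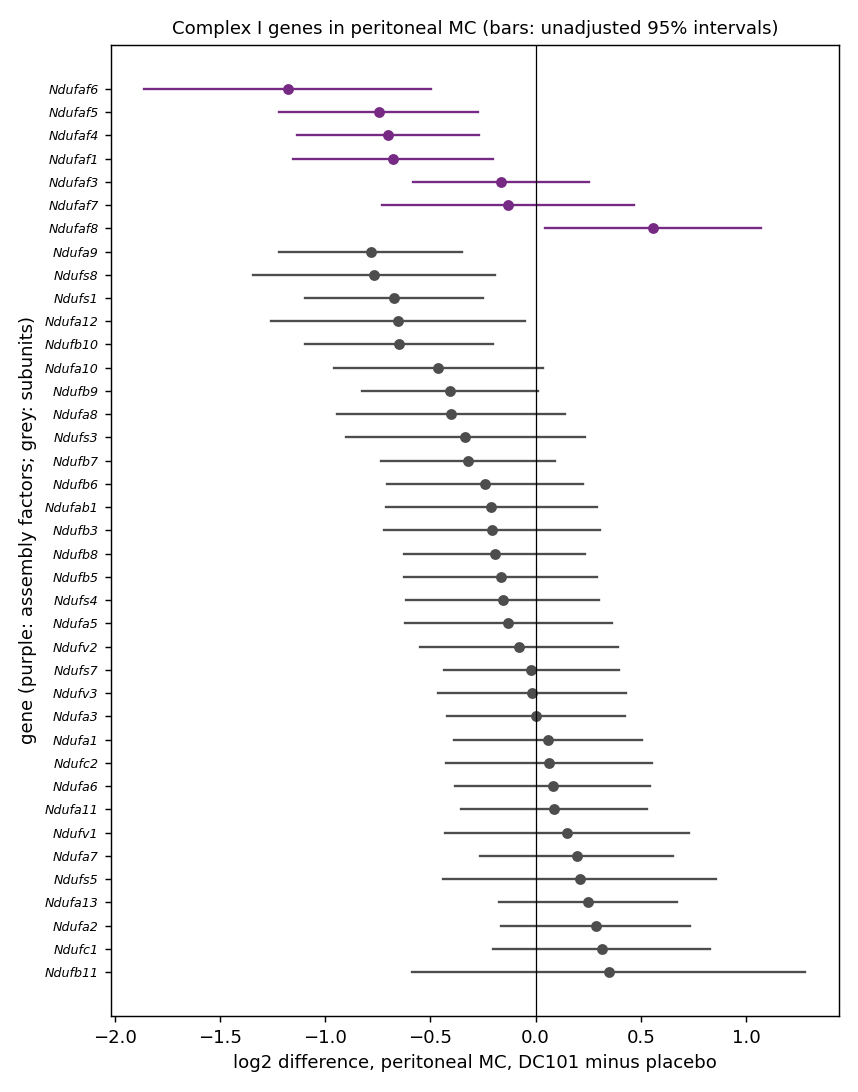
Difference between DC101 and placebo in peritoneal MC (x axis, log2) for 32 complex I subunits (grey) and 7 assembly factors (purple), each with its unadjusted 95% interval. The intervals of Ndufaf1, Ndufaf4, Ndufaf5, Ndufaf6 and of 5 subunits lie below 0, that of Ndufaf8 lies above, and no gene passes after adjustment.

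No gene of complex III or V passed in peritoneal MC. Uqcrq, a small subunit of complex III, had 8.37 and 7.73 with placebo and 8.60 and 9.0 with DC101 (difference 0.75 ± 0.26, adjusted p = 0.15), while the core proteins Uqcrc1 and Uqcrc2 had 0.01 ± 0.20 and −0.20 ± 0.18. In complex V the 16 differences ran from −0.34 (Atp5g3) to 0.63 (Atp5j2, adjusted p = 0.20). The catalytic subunits Atp5a1 and Atp5b had 0.15 ± 0.18 and −0.19 ± 0.18. Of the Atp5g genes, which encode the same ring subunit, Atp5g2 had 0.46 ± 0.25, Atp5g3 had −0.34 ± 0.18 and Atp5g1, below the median cluster, had −0.10 ± 0.41. In peritoneal MC Cox7a1 was the only complex IV isoform that passed, and the others had −0.04 ± 0.18 and −0.16 ± 0.24 for Cox4i1 and Cox4i2, 0.19 ± 0.19 and 0.71 ± 0.34 for Cox6a1 and Cox6a2, 0.28 ± 0.21 and −0.50 ± 0.36 for Cox6b1 and Cox6b2, and 0.15 ± 0.21, 0.27 ± 0.22 and −0.20 ± 0.21 for Cox8a, Cox8b and Cox8c.

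Whether the response to DC101 differed between compartments was tested as an interaction. No member passed (0.805% of all clusters did), and 2 members on the higher and 8 on the lower side had an unadjusted p under 0.05 (6.71% and 6.39% of all clusters, 13.1% together). Of the members 43 were above 0 (50.7% of all clusters). Sdhd came closest, with its response 1.60 ± 0.35 higher in peritoneal than in tumor MC (adjusted p = 0.081). The same quantity was 1.55 ± 0.50 for Cox7a1 (adjusted p = 0.22), −0.79 ± 0.26 for Ndufa4 (adjusted p = 0.23) and −0.88 ± 0.29 for Ndufaf5 (adjusted p = 0.23). In the other complexes the smallest p were those of Ndufs1 (−0.68 ± 0.26, adjusted p = 0.31), Uqcrh-ps1 (−1.28 ± 0.39, adjusted p = 0.20) and Atp5j2 (0.48 ± 0.35, adjusted p = 0.63). The peritoneal rise of Sdhd and Cox7a1 is therefore not shown to differ from their response in tumor MC, which was −0.15 ± 0.25 and 0.07 ± 0.36. With an intensity trend, Sdhd (adjusted p = 0.034) and Ndufa4 (adjusted p = 0.027) passed.

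**Figure D3:**
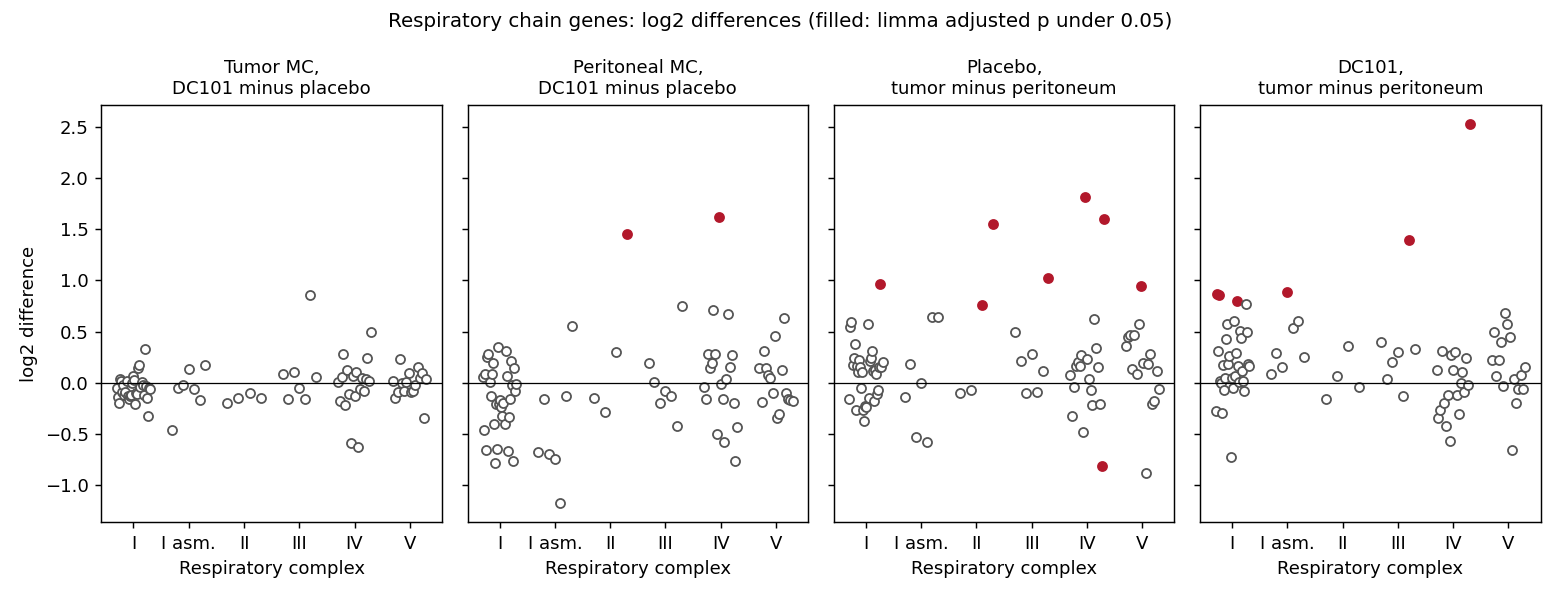
Log2 differences (y axis) of the 85 genes by respiratory complex (x axis, I asm. for complex I assembly factors) in 4 comparisons, with filled points for an adjusted p under 0.05. No point is filled for tumor MC, 2 are for DC101 in peritoneal MC, 8 for tumor against peritoneum with placebo and 6 with DC101.

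Between tumor and peritoneal MC, fewer respiratory chain genes passed than the share over all clusters. With placebo, 7 members were higher in tumor MC and 1 was lower, 8 of 85 (9.41%) against a background of 19.6% of all clusters (11.3% higher and 8.29% lower). With cyclic loess between arrays the split was 6 higher and 2 lower. Member differences had a median of 0.15, beside −0.01 over all clusters, and 56 of 85 were above 0 (48.7% of all clusters). At an unadjusted p under 0.05, 16 were higher and 3 lower (22.4% of members, against 30.4% of all clusters). Both tumor arrays lay above both peritoneal arrays for 35 members (28.6% of all clusters) and below them for 15 (28.3%). With cyclic loess the median was 0.03 and 49 were above 0. The comparisons with peritoneal placebo share its 2 arrays, so the values for Sdhd, Cox7a1 and Ndufa4 here and under DC101 rest on the same low or high arrays.

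Ndufa4l2, a paralog of Ndufa4 known as a target of hypoxia-inducible factor, had the largest tumor difference of any member with DC101 and was also higher with placebo. It measured 4.01 and 4.53 in tumor MC with placebo, 4.75 and 4.78 in tumor MC with DC101, 2.99 and 2.35 in peritoneal MC with placebo, and 2.32 and 2.15 in peritoneal MC with DC101. All 4 tumor arrays lay above all 4 peritoneal arrays, and the peritoneal values were below the median cluster. The difference was 1.60 ± 0.27 with placebo, 3.04-fold (adjusted p = 0.0028), and 2.53 ± 0.27 with DC101, 5.78-fold (adjusted p = 0.00018). Leaving out any 1 array kept both calls (1.28 to 1.92 and 2.45 to 2.62), and the placebo call was lost without moderation (adjusted p = 0.051). Its DC101 response was 0.49 ± 0.27 in tumor MC (adjusted p = 1.0) and −0.44 ± 0.27 in peritoneal MC (adjusted p = 0.45). Ndufa4 itself was lower in tumor MC with placebo (−0.81 ± 0.18, adjusted p = 0.014). That call was lost without tumor placebo replicate 2 (−0.74, adjusted p = 0.092) or peritoneal placebo replicate 2 (−0.80, adjusted p = 0.056). With DC101 the Ndufa4 difference was −0.02 ± 0.18.

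The other members higher in tumor MC with placebo came from each of the complexes. Sdhd was higher by 1.55 ± 0.25 (adjusted p = 0.0022) and kept its call in every alternative and with any 1 array left out (1.28 to 1.82). With DC101 the Sdhd difference was −0.04 ± 0.25. Cox7a1 was higher by 1.82 ± 0.36 (adjusted p = 0.0065), which was lost without tumor placebo replicate 1 (1.53, adjusted p = 0.051) and without moderation (adjusted p = 0.094). With DC101 its difference was 0.27 ± 0.36.

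Uqcrq of complex III measured 8.98 and 9.17 in tumor MC with placebo, against the 8.37 and 7.73 of peritoneal MC (difference 1.02 ± 0.26, adjusted p = 0.023). Atp5g2, which encodes the proton-carrying ring subunit of complex V, measured 10.98 and 11.06 against 10.43 and 9.71 (0.94 ± 0.25, adjusted p = 0.028). Ndufv1 measured 7.09 and 7.08 against 6.47 and 5.77 (0.96 ± 0.26, adjusted p = 0.028). Both tumor arrays lay above both peritoneal arrays for each of them, and peritoneal placebo replicate 2 was the lowest. All 3 calls were lost without that array, with differences of 0.70 (Uqcrq, adjusted p = 0.13), 0.58 (Atp5g2, adjusted p = 0.14) and 0.61 (Ndufv1, adjusted p = 0.15). They were also lost without tumor placebo replicate 1 (adjusted p = 0.064, 0.092 and 0.11) or 2 (0.12, 0.12 and 0.11).

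Sdhc measured 7.81 and 7.87 in tumor MC with placebo, against 7.24 and 6.93 in peritoneal MC (difference 0.76 ± 0.21, adjusted p = 0.036). The groups did not overlap. The Sdhc call was lost without either tumor placebo array (0.79 and 0.73, adjusted p = 0.12 and 0.15), either tumor DC101 array (0.76, adjusted p = 0.059), or peritoneal placebo replicate 2 (0.60, adjusted p = 0.17), and with cyclic loess (0.61, adjusted p = 0.067). No assembly factor passed, the nearest being Ndufaf8 (0.64 ± 0.23, adjusted p = 0.084).

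With DC101, 6 members were higher in tumor than in peritoneal MC and 0 were lower (7.06% of members), against 21.9% of all clusters (12.4% higher and 9.54% lower). At an unadjusted p under 0.05, 14 were higher and 0 lower, against 17.1% and 15.0% of all clusters (32.1% together). Both tumor arrays lay above both peritoneal arrays for 38 members (28.6% of all clusters) and below them for 9 (30.0%). The median was 0.15, beside −0.03 over all clusters, and 59 of 85 were above 0 (47.8% of all clusters). With cyclic loess the median was 0.03 and 45 were above 0. Beside Ndufa4l2, the members that passed were the pseudogene Uqcrh-ps1, 3 subunits and 1 assembly factor of complex I. Complexes II and V had none, with the smallest p for Sdhc (0.36 ± 0.21, adjusted p = 0.29) and Atp5b (0.49 ± 0.18, adjusted p = 0.092). Only Ndufa4l2 was called in both tumor comparisons.

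Ndufb9, an accessory subunit of the membrane arm, measured 9.64 and 9.67 in tumor MC with DC101 against 8.79 and 8.93 in peritoneal MC (difference 0.80 ± 0.19, adjusted p = 0.014). Ndufa10 measured 8.34 and 8.51 against 7.49 and 7.63 (0.87 ± 0.22, adjusted p = 0.020). Both tumor arrays lay above both peritoneal arrays for each. The call of Ndufb9 was lost without either tumor DC101 array (0.81 and 0.78, adjusted p = 0.071 and 0.078) or peritoneal DC101 replicate 1 (0.73, adjusted p = 0.067), and that of Ndufa10 without the same arrays (0.96, 0.78 and 0.79, adjusted p = 0.067, 0.12 and 0.095).

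Ndufaf5 measured 5.77 and 5.69 in tumor MC with DC101 against 4.88 and 4.82 in peritoneal MC (difference 0.88 ± 0.21, adjusted p = 0.015). The groups did not overlap, and the call was lost without any of the 4 DC101 arrays (0.84 and 0.92 without tumor DC101 replicates 1 and 2, 0.91 and 0.86 without peritoneal DC101 replicates 1 and 2, adjusted p = 0.092, 0.063, 0.052 and 0.059). Ndufa12 measured 8.18 and 8.03 against 7.04 and 7.45 (0.86 ± 0.27, adjusted p = 0.048). Its call was the least stable. It was lost without either tumor placebo array (adjusted p = 0.069), either tumor DC101 array (0.79 and 0.93, adjusted p = 0.21 and 0.13) or either peritoneal DC101 array (0.66 and 1.07, adjusted p = 0.23 and 0.053), and under both other scalings (adjusted p = 0.065 and 0.080). Uqcrh-ps1 was higher by 1.39 ± 0.28 (adjusted p = 0.0065), while Uqcrh differed by −0.13 ± 0.21.

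**Figure D4:**
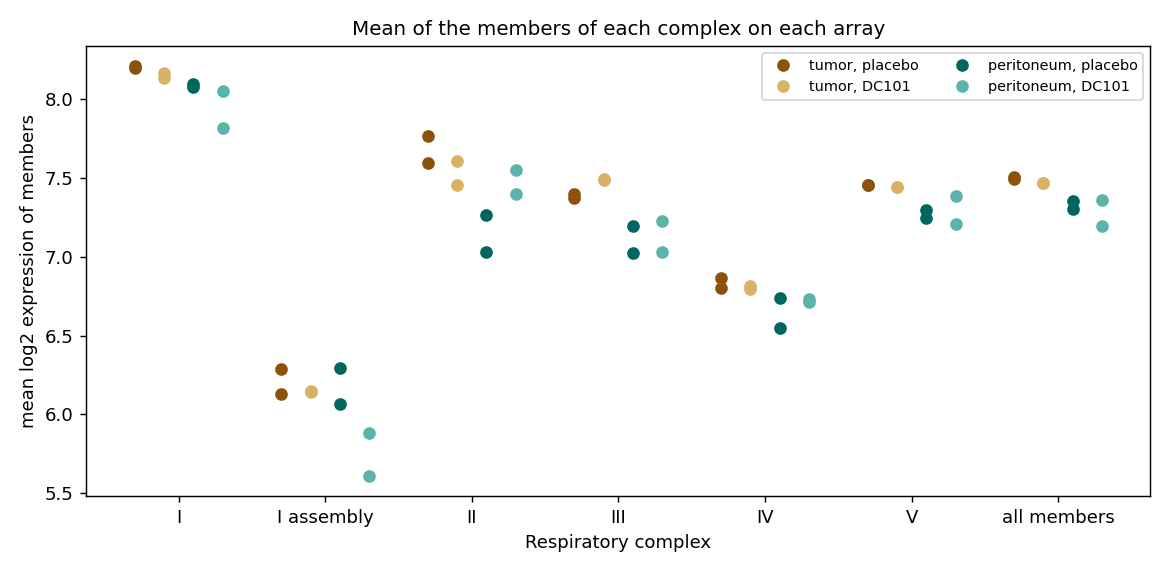
Mean log2 expression of the members of each complex (y axis) on each of the 8 arrays (points, coloured by group), to be compared within a complex only. Means of complex V lie between 7.44 and 7.46 on the tumor arrays and between 7.21 and 7.39 on the peritoneal arrays, and the means of the assembly factors are lowest on both peritoneal DC101 arrays (5.61 and 5.88).

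Averaged over members, these differences were small. The mean of all 85 members was 7.51 and 7.49 in tumor MC with placebo, 7.47 and 7.47 in tumor MC with DC101, 7.36 and 7.31 in peritoneal MC with placebo, and 7.20 and 7.36 in peritoneal MC with DC101. Every tumor array lay above every peritoneal array in the deposited values. With cyclic loess this order held, with 7.39 to 7.44 on the tumor arrays and 7.27 to 7.38 on the peritoneal arrays. With arrays shifted to 1 median it did not, as peritoneal DC101 replicate 2 and tumor DC101 replicate 1 both had 7.45. By complex, the mean of complex II was 7.26 and 7.03 in peritoneal MC with placebo and between 7.40 and 7.77 on the other 6 arrays. This is a mean of 4 genes, whose DC101 differences in peritoneal MC ran from −0.29 to 1.45 (Sdhd), with a median of 0.08. The mean of the assembly factors was 5.61 and 5.88 in peritoneal MC with DC101 and between 6.06 and 6.29 on the other 6 arrays. Peritoneal DC101 replicate 1 had the lowest mean of complex I (7.82, against 8.06 to 8.21 on the other 7).

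Other genes of the same pathways were read from lists. In tumor MC, DC101 changed none of them, as it changed 0 of all clusters. The calls in peritoneal MC stand against 2.48% of all clusters higher and 2.10% lower. In peritoneal MC, of 35 assembly factors outside the Ndufaf genes, Cox19, which handles copper for complex IV, rose by 0.87 ± 0.19 (adjusted p = 0.033) and Uqcc3, an assembly factor of complex III, fell by 1.12 on the log2 scale (adjusted p = 0.014). Of 16 regulators of mitochondrial transcription and biogenesis, Polg2, the accessory subunit of the mitochondrial DNA polymerase, rose by 1.21 ± 0.27 (adjusted p = 0.040). Of 12 glycolysis enzymes, Hk2, a hexokinase, rose by 1.53 ± 0.22 (adjusted p = 0.0084). None of 17 tricarboxylic acid cycle enzymes, 12 cristae and MICOS proteins, 12 carriers and related proteins, 5 cytochrome c and associated genes or 3 mitochondrially encoded subunits (COX1, ND1 and ND6) passed. Of 69 mitochondrial ribosomal proteins, Mrpl4 fell by 1.02 on the log2 scale (adjusted p = 0.019). Below 0 were 58 of the 69, against 12633 of 24111 clusters, and the median was −0.31, beside −0.02 over all clusters.

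Between compartments, the glycolysis list was read beside the respiratory chain. With placebo, 8 of 12 glycolysis enzymes were higher in tumor MC and 1, Hk3, was lower (−0.97 ± 0.23, adjusted p = 0.016), against 11.3% of all clusters higher and 8.29% lower. The median difference of the list was 1.39. Tpi1 (1.98 ± 0.20, adjusted p = 0.00015), Pgk1 (1.81 ± 0.22, adjusted p = 0.00040), Pgam1 (1.54 ± 0.26, adjusted p = 0.0033) and Pkm (1.48 ± 0.27, adjusted p = 0.0045), all enzymes of the pathway's later steps or its triose branch, were among the 8. With DC101, 6 were higher and Hk3 lower, against 12.4% and 9.54% of all clusters, with a median of 1.0. The difference between lists was not tested.

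The tricarboxylic acid cycle list had 3 of 17 enzymes higher in tumor MC with placebo and 0 lower, against 11.3% and 8.29% of all clusters, with a median of 0.36. These were Idh2 (1.64 ± 0.27, adjusted p = 0.0028), Dlst (1.07 ± 0.22, adjusted p = 0.0092) and Dld (1.07 ± 0.20, adjusted p = 0.0053). With DC101, 4 were higher and 0 lower, against 12.4% and 9.54%, among them Idh3a (1.31 ± 0.24, adjusted p = 0.0037) and the citrate synthase gene Cs (0.64 ± 0.19, adjusted p = 0.041). Of the 16 regulators 0 were higher and 4 lower in tumor MC with placebo, against the same 11.3% and 8.29%. These were Polg2 (−1.45 ± 0.27), Mterf3 (−0.89 ± 0.19) and the coactivator and nuclear receptor genes Ppargc1b (−0.81 ± 0.23) and Esrra (−0.76 ± 0.22), with adjusted p between 0.0050 and 0.037. With DC101, Pprc1 was higher and 3 were lower.

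The counts of the other lists stand against 11.3% of all clusters higher and 8.29% lower with placebo, and 12.4% and 9.54% with DC101. Of the 12 carriers and related proteins, 4 were higher and 1 lower with placebo, and 3 were higher and 1 lower with DC101. Vdac1, a pore of the outer membrane, was higher by 1.65 ± 0.24 with placebo (adjusted p = 0.0012), and Slc25a4, an ADP/ATP carrier, by 1.42 ± 0.19 with DC101 (adjusted p = 0.00064). The mitochondrial ribosome list had 6 of 69 higher and 2 lower with placebo (median 0.27), and 13 higher and 0 lower with DC101 (median 0.39). Of the 35 assembly factors, 2 were higher and 3 lower with placebo, and 2 were higher and 4 lower with DC101. With DC101, Cyc1 (0.88 ± 0.19, adjusted p = 0.010) and Higd1a (1.10 ± 0.27, adjusted p = 0.018) were higher in tumor MC, as was Chchd6 of the MICOS list (0.82 ± 0.22, adjusted p = 0.028).

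Markers of other cells and states moved with the compartments too. Their counts stand against 11.3% of all clusters higher and 8.29% lower with placebo, and 12.4% and 9.54% with DC101. With placebo, 6 of 6 fibroblast, 7 of 8 cycling cell, 7 of 9 immediate early response and 2 of 5 mesothelial markers were higher in tumor MC, and 5 of 5 B cell, 4 of 6 neutrophil, 4 of 11 T and NK cell, 3 of 9 macrophage and 2 of 5 eosinophil markers were lower. Of the 4 endothelial and of the 4 tumor epithelial markers, 1 each was higher and 1 lower. Of the 5 mesothelial markers, 3 had a difference below 0 with placebo and 2 with DC101. The mesothelial markers Upk3b and Wt1 lay below the median cluster in both tumor groups. With DC101, 6 of 6 fibroblast, 8 of 8 cycling cell, 5 of 11 T and NK cell (1 lower), 2 of 5 mesothelial and 1 of 4 tumor epithelial markers were higher, and 5 of 5 B cell, 7 of 9 macrophage (1 higher), 3 of 5 eosinophil and 2 of 6 neutrophil markers were lower. Immediate early response genes were higher for 3 of 9 with DC101, with a median difference of 0.14, against 1.92 with placebo. Of the 10 MC markers, 2 were higher in tumor MC with DC101, and 0 passed with placebo. Cycling cell markers had a summed linear level of 1702 to 1906 in tumor MC, 645 to 667 in peritoneal MC with placebo and 334 to 404 in peritoneal MC with DC101. Their part in the differences of Ndufa4l2, Sdhd, Cox7a1, the glycolysis list and the other members was not tested.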

How the data were processed

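RNA of sorted MC was measured on Affymetrix Mouse Gene arrays, 2 for each of 4 groups. The authors processed the array image files with R and Bioconductor packages and deposited log2 expression values, for which the submitters' processing notes name RMA. The sources used here name no version or options for it. This step sets the arrays to a common distribution, so a change shared by all genes would not be seen. Clusters were named from the platform annotation, and all 85 members matched a RefSeq gene by identifier. From the deposited log2 values, limma 3.58.1 in R 4.3.3 fitted 1 mean per group over all 24111 clusters (4 residual and 4.93 prior degrees of freedom), with 5 contrasts and Benjamini-Hochberg adjustment at 0.05. The words rose, fell, raised and changed refer to an adjusted p under 0.05. Errors are standard errors of the difference, and intervals are 95% and unadjusted. Arrays have no depth, so their number limits the precision. The functions were tested on simulated data.

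Named genes were, per comparison and complex, members that passed (up to 4 in each direction) or else that with the smallest p, the isoform pairs, all Sdh genes, up to 4 genes of each pathway list, and the genes most like the members that rose. Further members named for their values in peritoneal MC, neighbouring genes and markers were chosen after values were seen. The members and lists were chosen with earlier results of these data known. Replicate numbers had little shared effect, as deviations from group means correlated between −0.16 and 0.02. This cannot tell whether tumor and peritoneal arrays stem from the same mice, which the labels do not give. Alternatives were other priors, array weights, 2 scalings, filters, other thresholds, the 4 arrays of a comparison alone, the replicate block and leaving out each array. Plots were made in Python 3.11.15 using matplotlib 3.10.9.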

Additional observations from a re-analysis of the deposited data

How the results depend on the processing

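No called difference of a member changed sign under any alternative. Other priors, filters, thresholds, the 4 arrays alone and the replicate block leave the difference itself as it was, so its sign could not change there. DC101 changed 0 members in tumor MC throughout. The 2 members called in peritoneal MC became 6 with an intensity trend in the prior, 8 among clusters above the median cluster, 1 with array weights, 1 with the nested F-test, 3 at an unadjusted p under 0.05 with a log2 difference of at least 1 (Ndufaf6 added, lower), 0 without moderation and 0 with the 4 peritoneal arrays alone. Leaving out 1 array also moved this number, and fewer of all clusters passed in each of these fits. It was lowest without peritoneal placebo replicate 2, as was the number of all clusters that passed. The interaction, with 0 members, gave 2 with the trend and 4 at those thresholds, and 0 with any array left out. The 8 members called between compartments with placebo became 14 with the trend, 13 above the median cluster, 5 with 4 arrays, 4 without moderation and 4 at those thresholds. With 1 array left out the number fell most without either tumor placebo array or peritoneal placebo replicate 2, where fewer of all clusters passed too. The 6 called with DC101 became 13, 10 and 2 with the trend, above the median cluster and at those thresholds. With 1 array left out this number fell most without either tumor DC101 array or peritoneal DC101 replicate 1, where fewer of all clusters passed too. A lone array left in a group is assumed to vary like the other groups. With the trend, 16.5% of members passed between compartments with placebo and 15.3% with DC101, against 21% and 23.1% of all clusters. Above the median cluster these were 17.1% and 13.2%, against 39% and 44%. The interaction had 2.35% with the trend, against 1.92%. At those thresholds, peritoneal DC101, the interaction and both compartment comparisons had 3.53%, 4.71%, 4.71% and 2.35%, against 5.88%, 7.39%, 15.4% and 17%. With 4 arrays and without moderation, the placebo comparison of compartments had 5.88% and 4.71%, against 17.1% and 11.3%. In peritoneal MC, array weights and the nested F-test had 1.18% each, against 3.11% and 2.17%. Without moderation and with the 4 peritoneal arrays alone 0 members passed, against 0.137% and 1.88% of all clusters. Fewer clusters are adjusted over above the median cluster. For the other shifts the cause was not tested.

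The replicate block gave 0, 3, 0, 7 and 5 members in the 5 comparisons (tumor DC101, peritoneal DC101, interaction, compartments with placebo and with DC101). It called 3.53% of members in peritoneal MC, 8.24% between compartments with placebo and 5.88% with DC101. The shares of all clusters were 3.53%, 18.2% and 20.6%. The block ended the calls of Sdhc and Ndufa12 and added Ndufaf6 (adjusted p = 0.047) in peritoneal MC. A crossed pairing of the tumor arrays, chosen after seeing the data, gave 0. The mean of all members in tumor MC moved from 7.5 to 7.47 with arrays shifted to 1 median and to 7.43 with cyclic loess for placebo, and from 7.47 to 7.47 and 7.41 for DC101. In peritoneal MC it moved from 7.33 to 7.31 and 7.36 for placebo, and from 7.28 to 7.32 and 7.32 for DC101. With 2 arrays per group and no detection call, values of the 9 members below the median cluster say least.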
